A study of Mus musculus with 10 samples.

Results

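The genes described here are the 43 Wnt ligands, receptors and modulators of the mouse genome named for this work: 19 Wnt ligands, 12 receptors (10 Frizzled receptors and the co-receptors Lrp5 and Lrp6), 7 secreted inhibitors of the Sfrp and Dkk families, the feedback regulator Axin2 and the 4 nuclear factors Lef1, Tcf7, Tcf7l1 and Tcf7l2. All 43 were found among 21631 protein-coding loci, and a member's locus is its gene body with 10 kb on either side. Accessible chromatin was mapped by ATAC-seq, in which a transposase cuts open DNA, in 10 libraries of bone marrow stromal cells from mice of strain C57BL/6J. The measurement is the number of accessible peaks with their summit in the locus. Each list was limited to its 39912 strongest peaks, so that every library entered with the same number.

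The groups were rMSC (n = 3), control (n = 3), Scf-GFP-positive (n = 2) and Scf-GFP-negative (n = 2). rMSC, called revitalized MSCs by the submitters, were cultured stromal cells transduced with Klf7, Ostf1 and Xbp1 together with Irf3 and Irf7. Control stroma was cultured and transduced with a control vector, so transduction and culture were common to both. Both were seeded from Scf-GFP-positive cells of digested marrow and grown in medium with 20% fetal bovine serum, FGF-basic at 10 ng/ml, antibiotics and glutamine. Scf-GFP-positive and Scf-GFP-negative cells were sorted freshly from marrow without CD45, Ter119 or CD31, which mark blood, red cell and vessel lineages, and carried no transduced gene. Scf is stem cell factor, the product of Kitl, on which blood stem cells depend. Between 2700 and 5000 cells entered a library. The age and sex of the animals, and whether replicates were separate animals or cultures, are not given in the labels. P-values therefore cover no more than library-to-library spread, part or all of which may be technical.

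Wnt proteins are secreted lipid-modified signals that bind Frizzled receptors. Together with Lrp5 or Lrp6 this stabilises beta-catenin, which turns on genes with the Tcf and Lef factors in the nucleus, while other Wnts act through receptors such as Ror1 and Ror2 without beta-catenin. Sfrp proteins bind Wnts outside the cell and Dkk1 and Dkk2 block Lrp5 and Lrp6. In bone marrow stroma the pathway is known for promoting bone formation.

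The deposited lists held 39936 to 78489 peaks, and read depth is unknown, so a missing peak says only that none was in the list. The weakest peaks kept had a −log10 q of 2.65 and 2.10 in Scf-GFP-negative libraries 1 and 2 and of 4.27 to 5.80 in the others, so Scf-GFP-negative lists reached further down. The sorted groups also differed in marker loci, whose part in the results below was not tested. Loci of 10 blood markers held 11 to 13 summits in rMSC and 10 to 12 in control libraries. They held 21 and 20 in Scf-GFP-positive and 40 and 50 in Scf-GFP-negative libraries. The largest Scf-GFP-negative counts were at Ikzf1 (13 and 19) and Klf1 (8 and 9), against 4 and 3 and 5 and 4 in Scf-GFP-positive libraries. Ptprc had 6 and 5 in Scf-GFP-negative, none in Scf-GFP-positive and 2 in every cultured library. Spi1 and Cd79a overlapped between the sorted groups. Elane went the other way, at 5 and 4 in Scf-GFP-positive and 0 and 2 in Scf-GFP-negative libraries. Loci of 10 niche stroma markers held 57 and 44 summits in Scf-GFP-positive libraries, with all 10 markers at 1 or more, and 10 and 7 in Scf-GFP-negative libraries, with 6 and 4 markers at 1 or more. Loci of 8 osteoblast markers held 23 to 28 summits in rMSC, 21 to 30 in control, 62 and 65 in Scf-GFP-positive and 14 and 16 in Scf-GFP-negative libraries. Loci of 6 chondrocyte markers held 20 to 25 in rMSC, 17 to 21 in control, 20 and 17 in Scf-GFP-positive and 56 and 41 in Scf-GFP-negative libraries. Most of the Scf-GFP-negative summits were at Sox5 (37 and 21) and Sox6 (17 and 19). Sox9, Acan and Matn1 had 0 in both Scf-GFP-negative libraries, and Col2a1 had 2 and 1, against 4 and 3 in Scf-GFP-positive ones. Scf-GFP-negative library 1 also held 4014 summits on chromosome 6, which carries Lrp6, Wnt5b and Tcf7l1, against 2102 to 2366 in the other libraries.

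Summed over the Wnt loci, summits were fewest in Scf-GFP-negative stroma and most in Scf-GFP-positive stroma, with the cultures between. Over the 43 loci, summits numbered 101, 96 and 102 in rMSC, 100 in each control library, 109 and 116 in Scf-GFP-positive and 70 and 67 in Scf-GFP-negative libraries. Members with at least 1 summit numbered 33 to 37 in rMSC, 34 or 35 in control, 32 and 37 in Scf-GFP-positive and 22 and 21 in Scf-GFP-negative libraries. The same totals over all protein-coding loci are not given here, so whether these differences are particular to Wnt loci was not tested. Summits of neighbouring members are counted for each. Wnt6 and Wnt10a, whose gene bodies lie 6696 bp apart, shared 7 summits over all libraries, Wnt1 and Wnt10b shared 9 and Wnt3a and Wnt9a shared 2. In these bulk libraries fewer cells with an open site and weaker opening in each cell cannot be told apart.

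**Figure D1:**
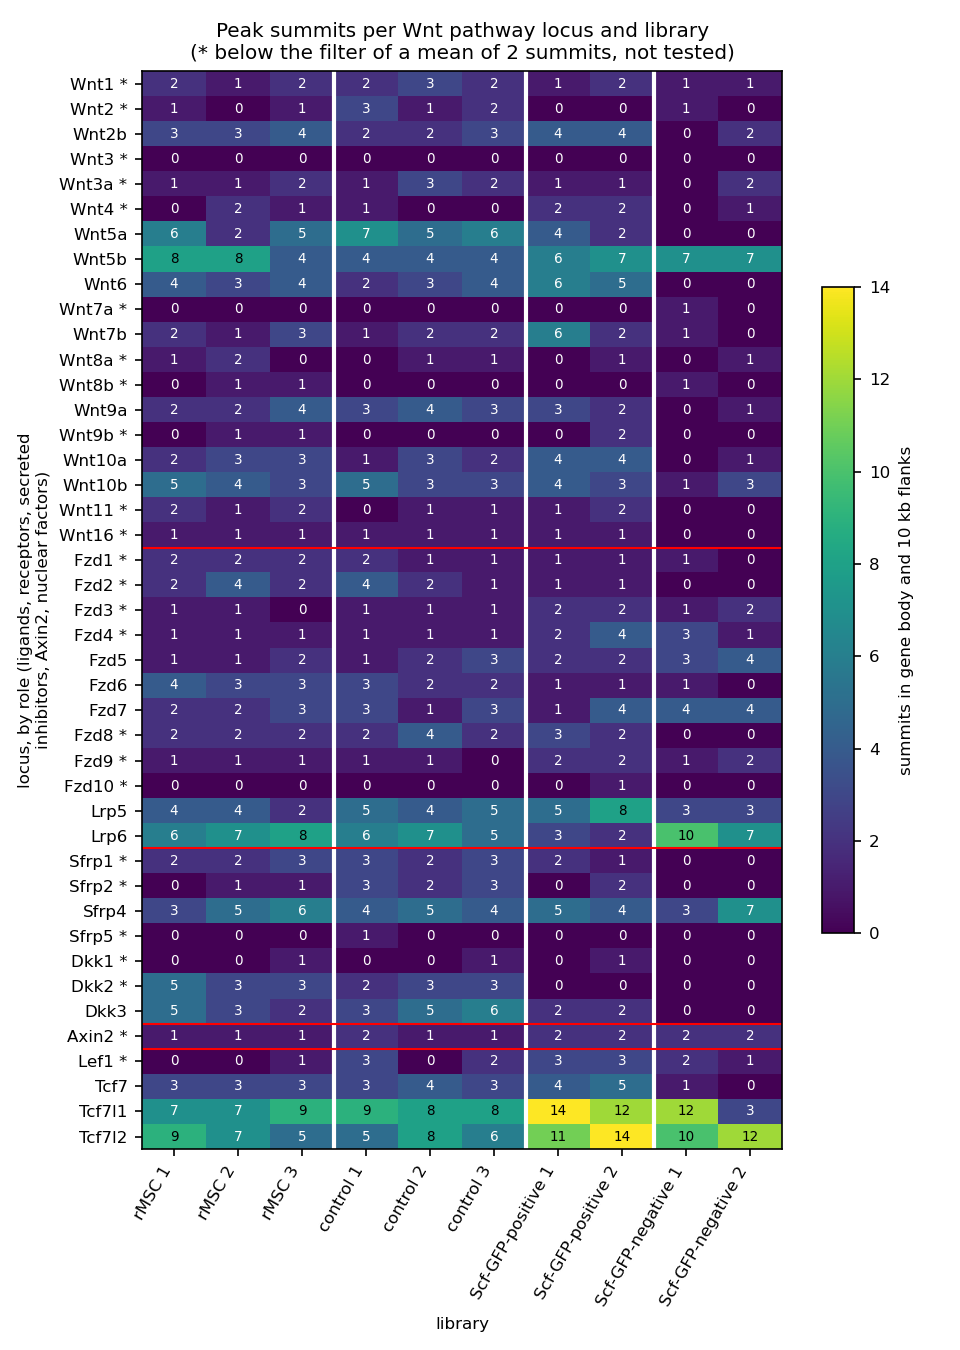
Number of peak summits in each of the 43 Wnt loci (rows, by role) in each of the 10 equal-size lists (columns, by group); colour and printed number give the same count. Tcf7l1 and Tcf7l2 reached 14 summits in a Scf-GFP-positive library. Wnt5a, Wnt6, Sfrp1, Dkk2, Dkk3, Fzd2 and Fzd8 were among the loci at 0 in both Scf-GFP-negative libraries. Dkk2 was at 0 in both Scf-GFP-positive libraries as well.

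Comparisons used limma on log2(summits + 0.5), fitted to all 9143 loci averaging 2 or more summits, and p-values were adjusted over all of them by the Benjamini-Hochberg method, with a threshold of 0.05. Of the 43 members, 18 passed this filter and 25 did not, so the counts that follow are of 18. Because that mean spans every library, a locus with summits in few libraries may be left out. For the same reason a locus may enter only through the group where it is high. Wnt10a and Wnt7b fell below the filter without their Scf-GFP-positive libraries, and Fzd6 without its rMSC libraries. In Scf-GFP-positive against Scf-GFP-negative stroma, 8 of the 18 had more summits and 1 had fewer, where 13.4% of all tested loci had more, 16.3% had fewer and 29.7% were called in all. The median log2 change was 1.00 over the 18 members and −0.22 over all tested loci, and 0.88 over the 18 with the 3 members at 0 in Scf-GFP-negative stroma set against a floor of 3 summits over that group. In control against Scf-GFP-positive stroma 1 of 18 was called, with more summits, where 5.36% of all loci had more, 5.53% had fewer and 10.9% were called. In rMSC against Scf-GFP-positive stroma 1 of 18 was called, again with more, where 6.97% of all loci had more, 6.06% had fewer and 13.0% were called. Median changes were −0.24 over the members and −0.02 over all loci for control, and −0.13 and 0.00 for rMSC. In rMSC against control none of the 18 passed in limma, where 2.47% of all loci did (1.42% with more and 1.05% with fewer), and 1 member, Wnt5b, had an unadjusted p under 0.05. The comparisons of the cultures with Scf-GFP-positive stroma share the same 2 libraries.

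**Figure D2:**
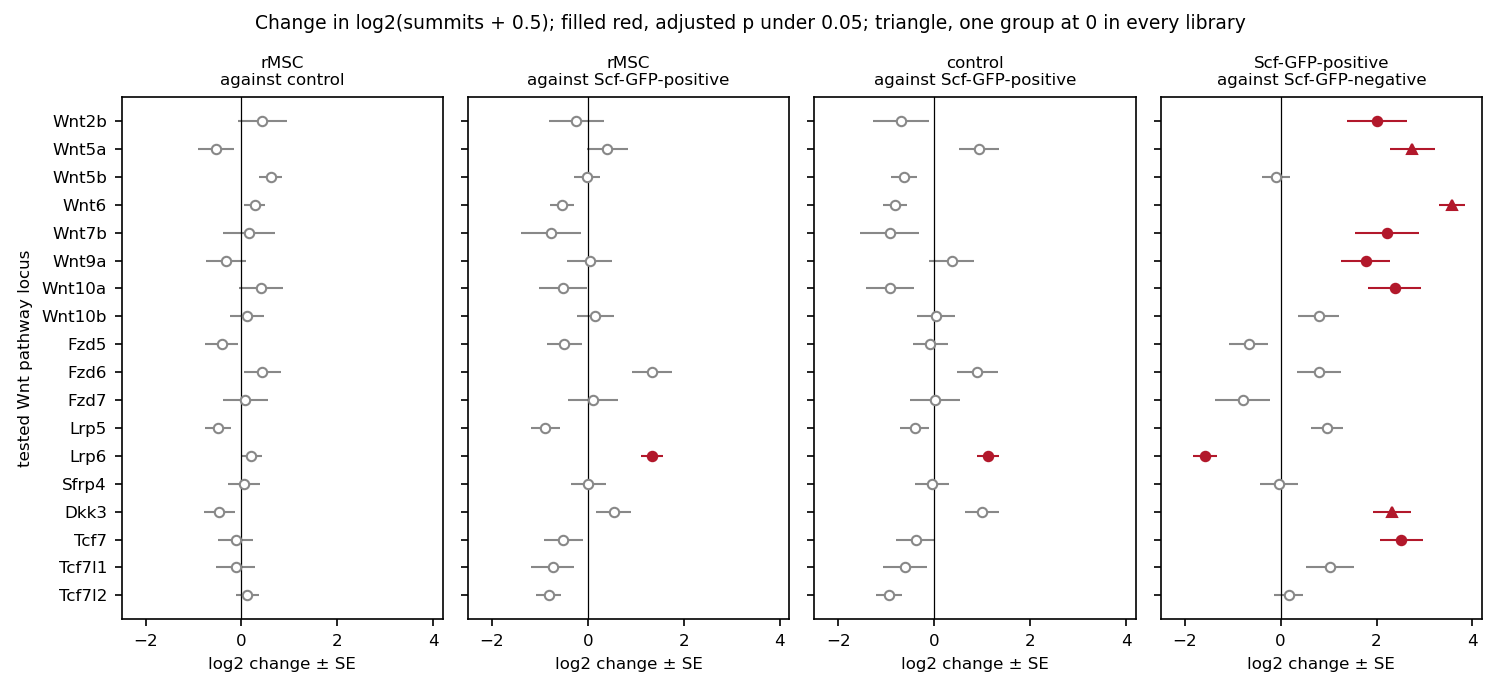
Log2 change in log2(summits + 0.5) with its SE (x axis) for the 18 tested Wnt loci (y axis) in 4 comparisons, from the limma fit; filled red marks an adjusted p under 0.05. Triangles are loci at 0 in every library of one group, whose fitted value depends on the added 0.5. The 9 calls of the Scf-GFP-positive against Scf-GFP-negative panel lie to the right of 0 except Lrp6.

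Among the ligands, 8 of 19 were tested and 6 of these had more summits in Scf-GFP-positive than in Scf-GFP-negative stroma. Wnt6, a ligand known from epithelial and somite development, showed the lowest adjusted p of the members. Wnt6 (chr1:74754342-74785322, mm10) had 4, 3 and 4 summits in rMSC, 2, 3 and 4 in control, 6 and 5 in Scf-GFP-positive libraries and 0 in both Scf-GFP-negative ones. Of these 31 summits, 5 lay only in the body of another gene. Sorted groups did not overlap (adjusted p = 0.000133 in limma), and no fold is given because 1 group was at 0. In control against Scf-GFP-positive stroma Wnt6 differed by −0.81 ± 0.25 (0.0769 in limma), against −1.02 (0.0458) without control library 3. Its neighbour Wnt10a, which is required for tooth and hair development, had 2, 3 and 3 in rMSC, 1, 3 and 2 in control, 4 and 4 in Scf-GFP-positive and 0 and 1 in Scf-GFP-negative libraries. The log2 change between the sorted groups was 2.38 ± 0.55 (SE; adjusted p = 0.0158 in limma). Wnt10a's adjusted p was 0.069 without Scf-GFP-positive library 1, 0.068 without Scf-GFP-positive library 2 and 0.0568 without Scf-GFP-negative library 1.

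Wnt5a, the ligand best known for signalling without beta-catenin, was also called between the sorted groups. Wnt5a (chr14:28504543-28527448) had 6, 2 and 5 summits in rMSC, 7, 5 and 6 in control, 4 and 2 in Scf-GFP-positive libraries and 0 in both Scf-GFP-negative ones (adjusted p = 0.00479 in limma for the sorted groups). A region at the lower end of the gene body, chr14:28504320-28506310, was open in all 8 other libraries and in neither Scf-GFP-negative one. Control and Scf-GFP-positive counts of Wnt5a did not overlap, but the log2 change of 0.94 ± 0.42 did not pass (adjusted p = 0.204 in limma), though with all deposited peaks it was 1.34 (0.0327), and that of rMSC was 1.21 (0.0299).

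The other 3 called ligands had calls that rested on single libraries. Wnt2b had 3, 3 and 4 summits in rMSC, 2, 2 and 3 in control, 4 and 4 in Scf-GFP-positive and 0 and 2 in Scf-GFP-negative libraries. Its change between the sorted groups was 2.01 ± 0.63 (adjusted p = 0.0473 in limma), with an adjusted p of 0.150 and 0.151 without Scf-GFP-positive library 1 and 2 and a log2 change of 0.85 (0.0546) without Scf-GFP-negative library 1. Wnt9a, which acts in joint and skeletal development, had 2, 2 and 4 in rMSC, 3, 4 and 3 in control, 3 and 2 in Scf-GFP-positive and 0 and 1 in Scf-GFP-negative libraries. The change of Wnt9a was 1.77 ± 0.52 (adjusted p = 0.0380 in limma), with an adjusted p of 0.162 and 0.0838 without Scf-GFP-positive library 1 and 2 and a log2 change of 0.98 (0.133) without Scf-GFP-negative library 1. Wnt7b, a ligand with a role in bone formation, had 2, 1 and 3 in rMSC, 1, 2 and 2 in control, 6 and 2 in Scf-GFP-positive and 1 and 0 in Scf-GFP-negative libraries. Its change was 2.22 ± 0.67 (adjusted p = 0.0427 in limma), against 1.53 (0.212) without Scf-GFP-positive library 1 and 1.43 (0.207) without Scf-GFP-negative library 2. With a second random draw of the peaks tied at the weakest p, Wnt2b and Wnt7b also missed the threshold (adjusted p = 0.0547 and 0.0977 in limma).

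**Figure D3:**
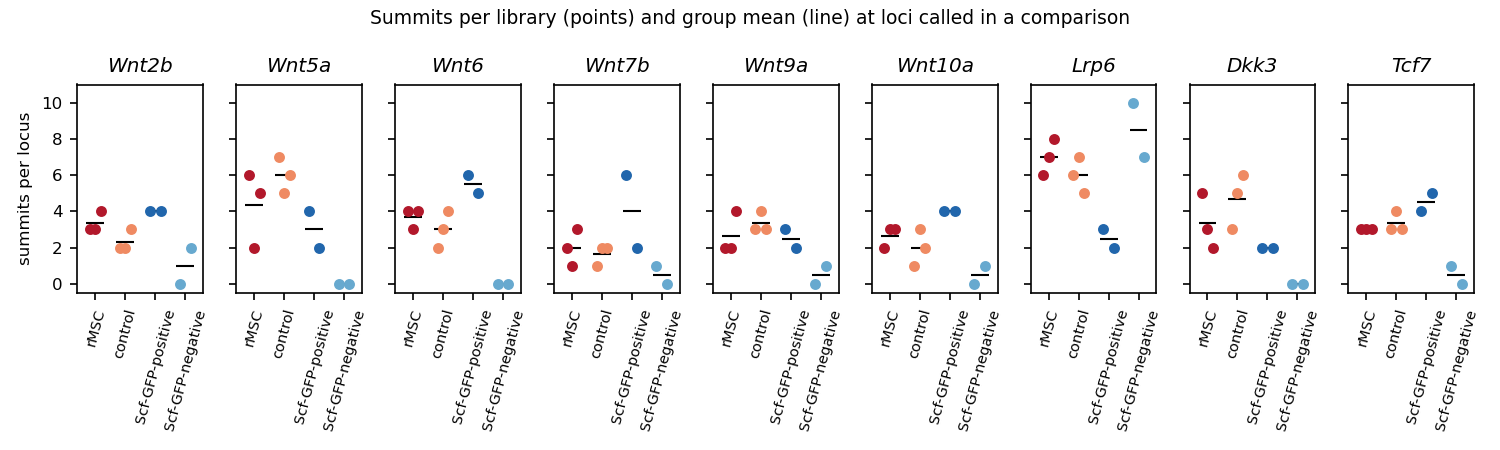
Summits per library (points, y axis) and group mean (line) at the 9 Wnt loci called in a comparison, with groups along the x axis. Wnt5a, Wnt6 and Dkk3 were at 0 in both Scf-GFP-negative libraries, and Lrp6 had 2 and 3 summits in Scf-GFP-positive libraries against 5 or more in every other library.

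Wnt5b, the ligand with the highest mean (5.9 summits), passed in no comparison of summit numbers, while the open sites differed between groups. Wnt5b (chr6:119432531-119544824, minus strand) had 8, 8 and 4 in rMSC, 4, 4 and 4 in control, 6 and 7 in Scf-GFP-positive and 7 and 7 in Scf-GFP-negative libraries. The rMSC counts overlapped those of every other group, and the control counts lay below those of both sorted groups. The log2 change was 0.61 ± 0.24 in rMSC against control (adjusted p = 0.246 in limma), with rMSC library 3 at the control count, and 0.92 (0.0203) without that library. It was −0.63 ± 0.27 in control against Scf-GFP-positive (0.181), −0.02 ± 0.27 in rMSC against Scf-GFP-positive (1.00) and −0.10 ± 0.29 between the sorted groups (0.834). With peaks tied at the weakest p left out, the sorted groups differed by −0.59 (0.0375). Of the 21 merged regions of the locus, 11 were open in at least 1 culture and 9 in at least 1 Scf-GFP-negative library, and 2 of these were the same, 18.2% of the first and 22.2% of the second. Over the genome 44.1% of merged regions were open in 1 library only. The sharing over all loci is not given here, so whether that of Wnt5b is low was not tested.

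The annotated starts of Wnt5b differed between groups. RefSeq (GRCm38.p6) gives 3, at positions 119544347, 119467211 and 119449386 of chromosome 6, and a start is called open here when a peak lies within 500 bp. The outermost start was open in 1 library, Scf-GFP-positive 2, and with all deposited peaks in 5. The middle start was open in all 6 cultures and in none of the 4 sorted libraries, and this held when all deposited peaks were used. The innermost start was open in both Scf-GFP-positive libraries and in control library 1, and with all deposited peaks also in rMSC 1, rMSC 2 and control 3. The 250 bases before each start, on the minus strand and 5′ to 3′, are shown because the libraries with an open site differed from start to start, and the middle one alone separated cultured from sorted cells. This locus was singled out after its values were seen. Capitals mark an AP-1 match (TGANTCA) at position −191 of the outermost start and a TCF/LEF match (CTTTGAA, or the same letters ending in AT, TA or TT, with both motifs sought on either strand) at −71 of the innermost one, and the middle sequence holds neither.
Wnt5b outermost, chr6:119544348-119544597: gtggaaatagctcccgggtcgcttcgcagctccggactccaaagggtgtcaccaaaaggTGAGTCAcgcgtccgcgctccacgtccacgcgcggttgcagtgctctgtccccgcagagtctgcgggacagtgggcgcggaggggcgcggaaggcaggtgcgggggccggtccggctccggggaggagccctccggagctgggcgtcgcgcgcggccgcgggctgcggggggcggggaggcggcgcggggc
Wnt5b middle, chr6:119467212-119467461: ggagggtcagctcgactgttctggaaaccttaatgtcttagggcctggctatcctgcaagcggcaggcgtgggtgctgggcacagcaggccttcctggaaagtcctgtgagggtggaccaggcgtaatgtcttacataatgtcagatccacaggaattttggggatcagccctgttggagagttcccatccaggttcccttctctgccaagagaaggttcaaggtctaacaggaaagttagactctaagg
Wnt5b innermost, chr6:119449387-119449636: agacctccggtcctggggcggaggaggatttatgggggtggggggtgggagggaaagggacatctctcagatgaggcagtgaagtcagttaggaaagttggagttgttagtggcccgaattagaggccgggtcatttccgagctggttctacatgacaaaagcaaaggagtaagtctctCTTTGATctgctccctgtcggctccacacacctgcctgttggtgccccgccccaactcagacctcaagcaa
The TCF/LEF letters occurred in 14.8% of 32851 promoter windows of this length and in 6 of the 38 of members (15.8%), and the AP-1 letters in 6.75% and in 1 of 38 (2.63%).

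**Figure D4:**
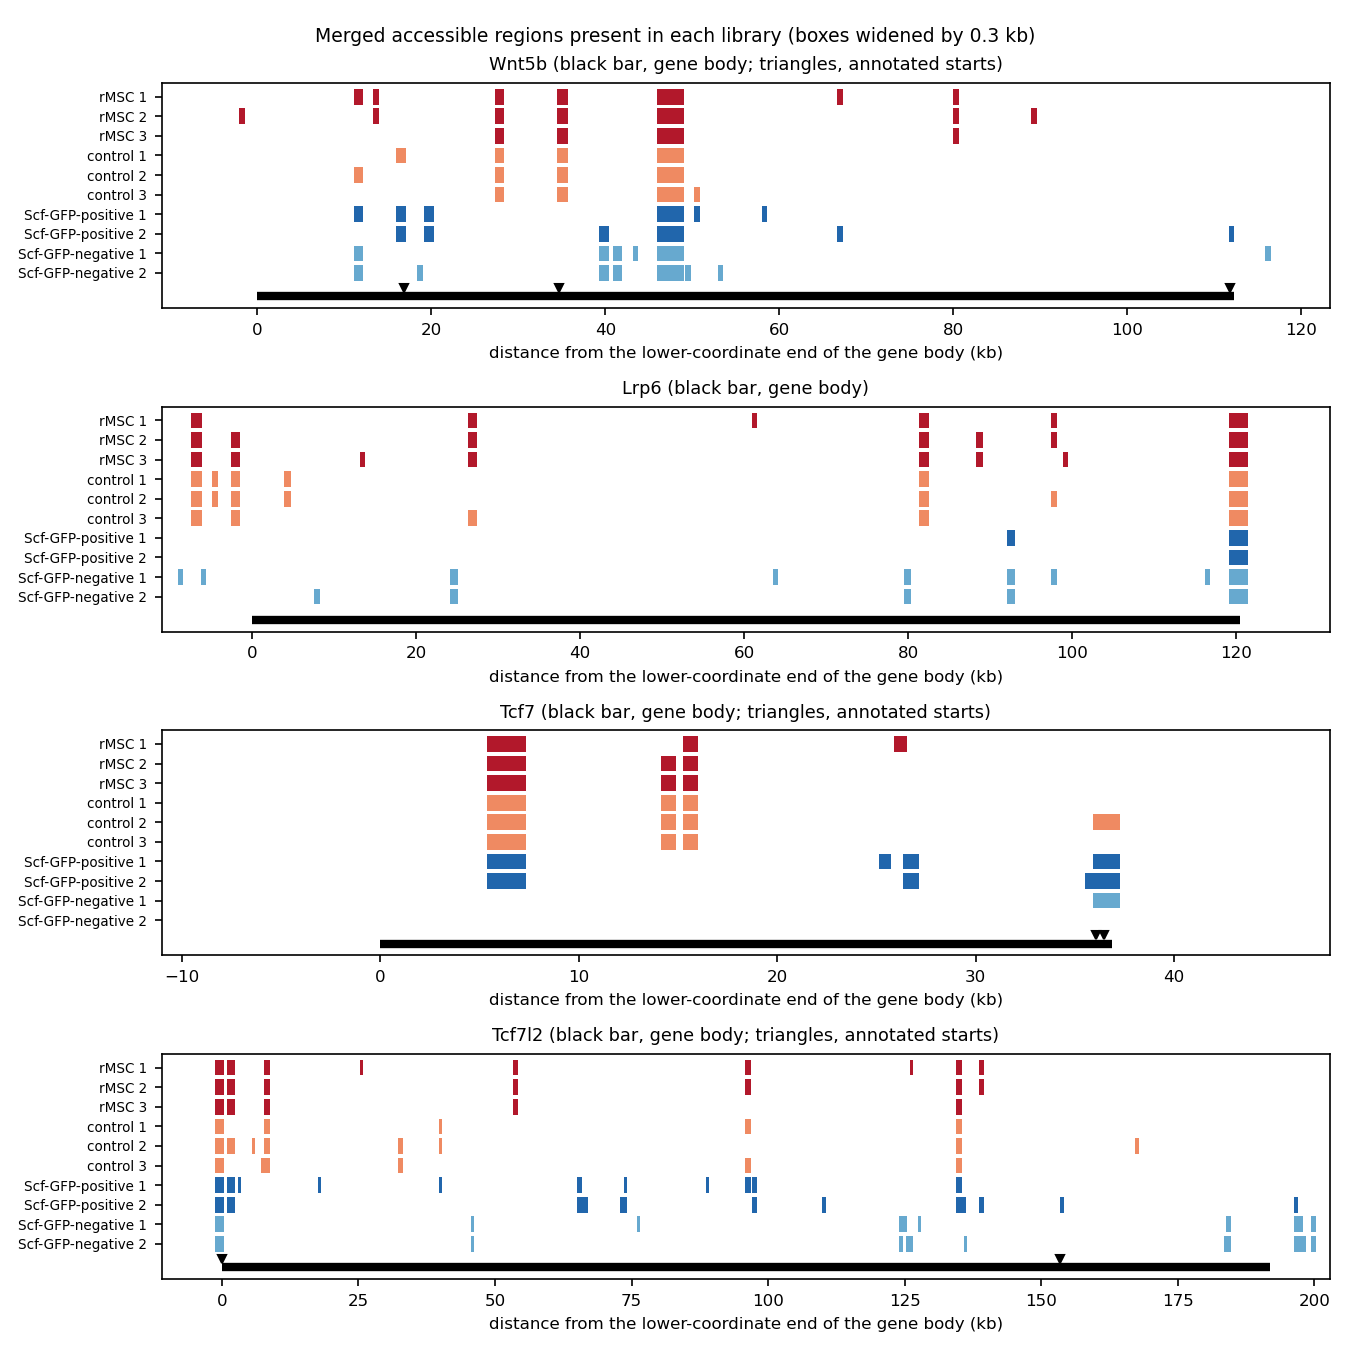
Merged accessible regions (boxes, coloured by group) present in each library (rows) along the loci of Wnt5b, Lrp6, Tcf7 and Tcf7l2, with the distance in kb from the lower-coordinate end of the gene body on the x axis; the black bar is the gene body and triangles are annotated starts where the start table held them. The Wnt5b region at the middle start is seen in the 6 cultures alone, and the Lrp6 regions of cultures and of Scf-GFP-negative libraries coincide at 2 places.

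The remaining 12 ligands had few summits or did not differ. Wnt10b, a ligand that favours bone over fat, was the only other one tested, with 5, 4 and 3 summits in rMSC, 5, 3 and 3 in control, 4 and 3 in Scf-GFP-positive and 1 and 3 in Scf-GFP-negative libraries, and did not pass in any comparison. Between the sorted groups its change was 0.79 ± 0.43 (adjusted p = 0.205 in limma), against 1.40 (0.046) without Scf-GFP-negative library 2 and 1.49 (0.0211) with all deposited peaks. The 11 below the filter had 0 to 3 summits per library. Of the 34 Wnt10b summits, 2 lay in its own body and 9 only in the body of another gene. Wnt16, which protects cortical bone, had 1 summit in each of the 8 rMSC, control and Scf-GFP-positive libraries and 0 in both Scf-GFP-negative ones. None of these lay in the Wnt16 body, and its locus touches the gene Fam3c. None of the 17 Wnt1 summits lay in its own body either. Wnt11 had 2, 1 and 2 in rMSC, 0, 1 and 1 in control, 1 and 2 in Scf-GFP-positive libraries and 0 in both Scf-GFP-negative ones. Wnt3 had no summit in any library, and Wnt7a had a single one, in Scf-GFP-negative library 1.

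Among the receptors, 5 of 12 were tested, and Lrp6 was called in 3 of the 4 comparisons. Lrp6 is the co-receptor that relays canonical Wnt signals together with a Frizzled. Lrp6 (chr6:134446476-134566913) had 6, 7 and 8 summits in rMSC, 6, 7 and 5 in control, 3 and 2 in Scf-GFP-positive and 10 and 7 in Scf-GFP-negative libraries. Scf-GFP-positive counts lay below those of every other group without overlap. The log2 change was 1.33 ± 0.23 in rMSC against Scf-GFP-positive (adjusted p = 0.0124), 1.12 ± 0.23 in control against Scf-GFP-positive (0.0251) and −1.58 ± 0.25 in Scf-GFP-positive against Scf-GFP-negative stroma (0.00391), all by limma. Without Scf-GFP-positive library 2 the rMSC change was 1.09 (adjusted p = 0.0645 in limma) and the control change 0.88 (0.120). The control change was also 1.12 (0.0659) without control library 1, 1.02 (0.0706) without control library 2 and 0.70 (0.0622) with a flank of 2 kb. The change between the sorted groups passed without any single library and with chromosome totals equalised.

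Most sites behind the Lrp6 counts of cultures and of Scf-GFP-negative stroma were different ones. Of 20 merged regions in the locus, 12 were open in at least 1 culture and 10 in at least 1 Scf-GFP-negative library, and 2 were common, 16.7% of the first and 20.0% of the second. Whether this sharing is low for a locus was not tested, since that over all loci is not given. One of the 2, chr6:134565736-134567753 at the upper end of the gene body, was open in all 10 libraries. The region chr6:134439134-134440290, below the gene body, and chr6:134527901-134528862 were open in all 6 cultures and no sorted library. A further region, chr6:134472937-134473761, was open in all 3 rMSC libraries, in 1 control library and in no sorted one. Both Scf-GFP-negative libraries, and no other, held chr6:134470801-134471448 and chr6:134526137-134526697. In Scf-GFP-positive stroma 2 regions of Lrp6 were open, and both were also open in Scf-GFP-negative stroma.

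Lrp5, the second co-receptor, had 4, 4 and 2 summits in rMSC, 5, 4 and 5 in control, 5 and 8 in Scf-GFP-positive and 3 and 3 in Scf-GFP-negative libraries. Between the sorted groups its counts did not overlap, and the change of 0.97 ± 0.33 missed the threshold (adjusted p = 0.0607 in limma). It passed with all deposited peaks (0.00477), with chromosome totals equalised (0.0327) and with a second draw of tied peaks (0.0193). In rMSC against Scf-GFP-positive stroma Lrp5 differed by −0.89 ± 0.30 (0.0945), and passed with that second draw (−1.11, 0.0327). Of its 43 summits over all libraries, 9 lay in the body of the neighbouring gene Ppp6r3 and not in Lrp5.

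The 3 tested Frizzled receptors were not called. Fzd6, a receptor of planar polarity signalling, had 4, 3 and 3 summits in rMSC, 3, 2 and 2 in control, 1 and 1 in Scf-GFP-positive and 1 and 0 in Scf-GFP-negative libraries. Its rMSC counts lay above the Scf-GFP-positive ones without overlap, at a log2 change of 1.34 ± 0.42 (adjusted p = 0.0780 in limma), which passed with a flow cell term (0.0396), a pseudocount of 1 (0.0432) or only the 2 groups (0.0156). Between the sorted groups Fzd6 differed by 0.79 ± 0.46 (0.238), against 1.58 (0.00749) without Scf-GFP-negative library 1. Fzd5 had 1, 1 and 2 in rMSC, 1, 2 and 3 in control, 2 and 2 in Scf-GFP-positive and 3 and 4 in Scf-GFP-negative libraries. Of the 7 receptors below the filter, Fzd8 had 2 in each rMSC, 2, 4 and 2 in control, 3 and 2 in Scf-GFP-positive libraries and 0 in both Scf-GFP-negative ones, and Fzd2 had 2, 4 and 2, then 4, 2 and 1, then 1 and 1, then 0 and 0, in the same order. Most Fzd4 summits, 13 of 16, lay only in the body of the gene Tmem135.

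Fzd7 stood for the receptors whose start was open everywhere. Fzd7 (chr1:59482147-59486955, plus strand) had 2, 2 and 3 summits in rMSC, 3, 1 and 3 in control, 1 and 4 in Scf-GFP-positive and 4 and 4 in Scf-GFP-negative libraries. Its start lay in a region, chr1:59480953-59483431, that was open in all 10 libraries and ranked within the strongest 22.2% of each list. The 250 bases before the start are shown because they are open in every library and hold a TCF/LEF match, in capitals, at position −130.
Fzd7, chr1:59481897-59482146: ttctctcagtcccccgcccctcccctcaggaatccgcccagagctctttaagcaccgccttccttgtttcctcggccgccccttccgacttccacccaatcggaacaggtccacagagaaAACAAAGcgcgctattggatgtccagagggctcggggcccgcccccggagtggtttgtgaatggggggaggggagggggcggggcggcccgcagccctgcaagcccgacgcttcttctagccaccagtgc

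Among the 7 secreted inhibitors, Sfrp4 and Dkk3 were tested. Dkk3, a Dkk family member not known as a direct blocker of Lrp6, had 5, 3 and 2 summits in rMSC, 3, 5 and 6 in control, 2 and 2 in Scf-GFP-positive libraries and 0 in both Scf-GFP-negative ones (adjusted p = 0.00487 in limma between the sorted groups). Its change in control against Scf-GFP-positive stroma was 1.00 ± 0.36 (0.119), and passed with all deposited peaks (1.26, 0.0479). Sfrp4, which binds Wnts and affects cortical bone, had the highest mean of the inhibitors (4.6), at 3, 5 and 6 in rMSC, 4, 5 and 4 in control, 5 and 4 in Scf-GFP-positive and 3 and 7 in Scf-GFP-negative libraries. All comparisons of Sfrp4 overlapped, with log2 changes between −0.05 and 0.06, and 11 of its 46 summits lay only in the body of Epdr1.

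The 5 inhibitors below the filter included several with counts of 0 in one kind of cell. Dkk2, a blocker of Lrp5 and Lrp6, had 5, 3 and 3 summits in rMSC and 2, 3 and 3 in control and none in any sorted library. When loci below the filter were tested as well, Dkk2 was called in rMSC and in control against Scf-GFP-positive stroma (adjusted p = 0.000215 and 0.000535 in limma). In the same fit Wnt16 (3.56e-07), Fzd8 (0.00127) and Sfrp1 (0.00428) were called with more summits in Scf-GFP-positive than in Scf-GFP-negative stroma. Wnt16 had 1 summit against 0 in each library, without spread inside a group. That fit no longer called Wnt2b (0.0767), Wnt9a (0.0611) and Wnt7b (0.0691 in limma) between the sorted groups. It called 9 members there, as the main fit did, and 3678 of all 17855 loci. Within Dkk2, chr3:132086922-132087633 was open in all 6 cultures, chr3:132102999-132103998 in the 3 rMSC libraries alone and chr3:132113768-132114174 in the 3 control libraries alone. At the rMSC region 2 control libraries held a weaker deposited peak. Sfrp1 had 2, 2 and 3 in rMSC, 3, 2 and 3 in control, 2 and 1 in Scf-GFP-positive libraries and 0 in both Scf-GFP-negative ones. Sfrp2 had 0, 1 and 1 in rMSC, 3, 2 and 3 in control, 0 and 2 in Scf-GFP-positive libraries and 0 in both Scf-GFP-negative ones. Sfrp5 and Dkk1 had at most 1 summit in any library.

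Axin2, a direct target of beta-catenin that feeds back on the pathway, had 1, 1 and 1 summits in rMSC, 2, 1 and 1 in control, 2 and 2 in Scf-GFP-positive and 2 and 2 in Scf-GFP-negative libraries, and lay below the filter. Its start region, chr11:108919910-108921535, was open in all 10 libraries.

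Of the nuclear factors, Tcf7 was called between the sorted groups. Tcf7, which encodes TCF1, is best known from T cells. Tcf7 (chr11:52246527-52283383) had 3, 3 and 3 summits in rMSC, 3, 4 and 3 in control, 4 and 5 in Scf-GFP-positive and 1 and 0 in Scf-GFP-negative libraries. The groups did not overlap, with a log2 change of 2.52 ± 0.44 (adjusted p = 0.00552 in limma). The region chr11:52252082-52253722 was open in all libraries but the Scf-GFP-negative ones, and chr11:52261924-52262372 in all 6 cultures and no sorted library. The region at the start, chr11:52282606-52283665, was open in both Scf-GFP-positive libraries, 1 control and 1 Scf-GFP-negative library and in no rMSC library.

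Tcf7l1, a Tcf factor that mainly represses, had the highest mean of all members (8.9). It had 7, 7 and 9 summits in rMSC, 9, 8 and 8 in control, 14 and 12 in Scf-GFP-positive and 12 and 3 in Scf-GFP-negative libraries. Of these 89 summits, 10 lay only in the body of the gene Tgoln1. The cultures lay below Scf-GFP-positive stroma without overlap and did not pass, at a log2 change of −0.73 ± 0.45 for rMSC (adjusted p = 0.338) and −0.61 ± 0.45 for control (0.443 in limma). The 2 Scf-GFP-negative libraries were 9 summits apart, and the higher one is the library with the excess on chromosome 6. The change between the sorted groups was 1.03 ± 0.50 (adjusted p = 0.161 in limma). It was 1.43 (0.00779) with chromosome totals equalised, 1.48 (0.0103) with the 20000 strongest peaks and 1.94 (0.00102) without Scf-GFP-negative library 1. Tcf7l2 had 9, 7 and 5 in rMSC, 5, 8 and 6 in control, 11 and 14 in Scf-GFP-positive and 10 and 12 in Scf-GFP-negative libraries. Its change against Scf-GFP-positive stroma was −0.82 ± 0.27 for rMSC (adjusted p = 0.0896) and −0.94 ± 0.27 for control (0.0654 in limma), without overlap in either, and the control change passed with chromosome totals equalised (−1.03, 0.0367). Between the sorted groups the Tcf7l2 counts overlapped, yet of the 19 regions open in Scf-GFP-positive and 15 in Scf-GFP-negative stroma 2 were common, 10.5% and 13.3%. The sharing over all loci is not given for these groups either. Lef1 had 0, 0 and 1 in rMSC, 3, 0 and 2 in control, 3 and 3 in Scf-GFP-positive and 2 and 1 in Scf-GFP-negative libraries, and chr3:131202092-131202760 was open in both Scf-GFP-positive libraries alone.

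Peaks of all libraries were merged into 119948 regions, of which 285 belonged to the Wnt loci, and these were described without a test. Of the 285, 36 (12.6%) were open in both Scf-GFP-positive libraries and neither Scf-GFP-negative one, against 9.65% of all regions, and 9 (3.16%) the reverse, against 4.46%. At 1 of the 36 a weaker deposited peak was present in a Scf-GFP-negative library. Without Scf-GFP-positive library 1 or 2 the count of 36 became 69, and without Scf-GFP-negative library 1 or 2 the count of 9 became 29 or 36. In every control and no Scf-GFP-positive library 21 were open (7.37%, all regions 7.17%), and 17 the reverse (5.96%, all regions 6.20%), which became 47 or 42 without Scf-GFP-positive library 1 or 2. In every rMSC and no Scf-GFP-positive library 22 were open (7.72%, all regions 7.90%), and 18 the reverse (6.32%, all regions 7.04%), which became 49 or 45 in the same way. In every rMSC and no control library 4 were open (1.40%, all regions 3.05%), and 5 the reverse (1.75%, all regions 3.44%). The 4 became 7 without rMSC library 1 or control library 2, and the 5 became 8, 10 and 9 without control library 1, 2 and 3.

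Across all groups, 12 of the 285 regions were open in all 10 libraries (4.21%, all regions 7.75%). Another 12 were open in every library except the Scf-GFP-negative ones (4.21%, all regions 2.10%), at Wnt1, Wnt5a, Wnt6, Wnt16, Fzd2, Fzd8, Sfrp1, Tcf7, Tcf7l1 and Tcf7l2. Open in every culture and no sorted library were 13 (4.56%, all regions 2.88%), at Wnt2b, Wnt3a, Wnt5b, Fzd6, Lrp6, Dkk2, Tcf7, Tcf7l1 and Tcf7l2. Open in a single group, in all of its libraries, were 3 in rMSC (1.05%, all regions 2.23%), 4 in control (1.40%, all regions 2.17%), 10 in Scf-GFP-positive (3.51%, all regions 3.79%) and 9 in Scf-GFP-negative stroma (3.16%, all regions 3.83%).

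The strongest regions of each kind by rank are given here, except those of Lrp6, Dkk2 and Lef1, which are given above. Present in the 8 other libraries and absent in both Scf-GFP-negative ones were chr8:23410587-23412400 in Sfrp1 and chr18:9211588-9212854 beside Fzd8, within the strongest 15.3% and 15.7% of both Scf-GFP-positive lists. In the reverse direction chr19:3589363-3590073 in Lrp5 was open in Scf-GFP-negative stroma alone, with a weaker deposited peak in 1 Scf-GFP-positive library. At Wnt2b, chr3:104944822-104945806 was open in the 6 cultures alone. The region at the Wnt2b start, chr3:104961379-104962054, was open in 2 rMSC, no control, both Scf-GFP-positive and 1 Scf-GFP-negative library, with a weaker deposited peak in 2 control libraries. Between the cultures, chr19:55795330-55795892 in Tcf7l2 was open in the 3 rMSC libraries alone, with a weaker peak in 1 control library, and chr3:83755644-83756136 beside Sfrp2 in the 3 control libraries alone. In Tcf7l2, chr19:55839050-55839606 was open in both Scf-GFP-positive libraries alone.

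Starts were in the RefSeq table for 30 of the 43 members, with 38 start sites. Fzd4, Fzd5, Fzd7, Axin2, Tcf7l1 and Tcf7l2 had a start open in all 10 libraries, and 7 members had none open in any. The number of members with an open start was 11 or 12 in rMSC and in control, 16 and 19 in Scf-GFP-positive and 10 in each Scf-GFP-negative library. Of the 38 sites, 28.9 to 31.6% were open in rMSC, 28.9 to 39.5% in control, 19 sites and 25 sites (65.8%) in Scf-GFP-positive and 26.3% in Scf-GFP-negative libraries. Of all 32619 starts, 37.7 to 38.0% were open in rMSC, 37.0 to 38.1% in control, 41.8% or more in Scf-GFP-positive and 35.9 and 37.6% in Scf-GFP-negative libraries. A start of Tcf7 and of Lef1 was open in both Scf-GFP-positive libraries and in no rMSC library, but among all deposited peaks at least 1 rMSC library held a weaker peak at each.

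**Figure D5:**
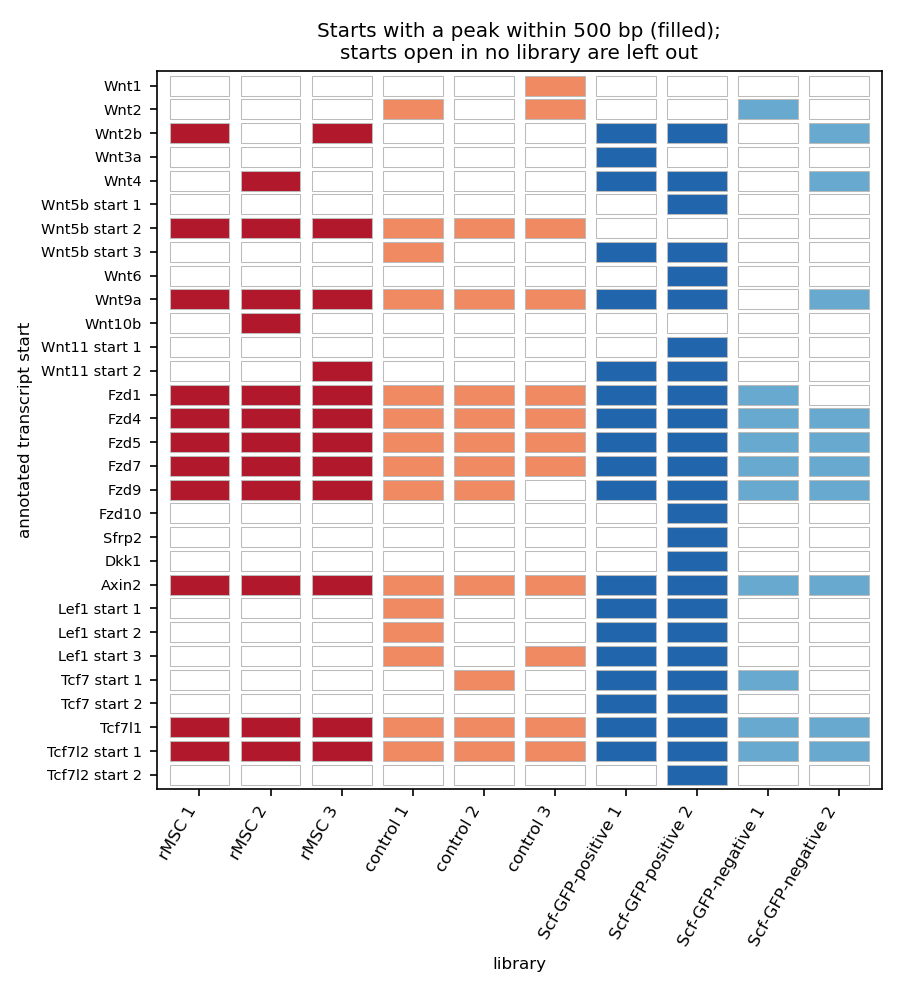
Annotated transcript starts of Wnt members (y axis) with a peak of the equal-size list within 500 bp (filled, coloured by group) in each library (x axis); starts are numbered in the order of the start table where a member has several. Fzd4, Fzd5, Fzd7, Axin2, Tcf7l1 and the first start of Tcf7l2 are filled in all 10 libraries, and the second Wnt5b start in the 6 cultures.

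The wider pathway was read from 74 other genes, of which 55 were tested. In Scf-GFP-positive against Scf-GFP-negative stroma 17 had more and 4 had fewer summits, with a median log2 change of 0.24. Over all tested loci 13.4% had more and 16.3% had fewer, and the median was −0.22. With only the 2 sorted groups fitted, 12 of the 17 higher calls ended. Ror1, a receptor of Wnt5a, had 5, 3 and 5 summits in rMSC, 11, 11 and 12 in control, 12 and 9 in Scf-GFP-positive libraries and 0 in both Scf-GFP-negative ones (adjusted p = 3.54e-05 in limma between the sorted groups). Ccn4 and Tnfrsf19, often used as Wnt targets, had 5 and 7 (Ccn4) and 5 and 5 (Tnfrsf19) in Scf-GFP-positive libraries and 0 in both Scf-GFP-negative ones (adjusted p = 0.000125 and 0.000318 in limma). Lrp4, a relative of Lrp5 and Lrp6, differed by 3.20 ± 0.49 (0.00322 in limma). Tnfrsf19 and Lrp4 fell below the filter without their Scf-GFP-positive libraries. The 4 with fewer were Celsr1 (−1.64 ± 0.27), Ctnnb1, which encodes beta-catenin (−1.61 ± 0.48), Vangl1 (−1.19 ± 0.23) and Apc2 (−0.83 ± 0.22). The call of Celsr1 ended with all deposited peaks (0.0808) and that of Vangl1 with the 20000 strongest (0.272), and Ctnnb1 and Apc2 kept theirs in 6 and 7 of 14 alternatives. Ctnnb1 had an adjusted p of 0.197 without Scf-GFP-positive library 1 and 0.135 and 0.114 without Scf-GFP-negative library 1 and 2 in limma. Apc2 had 0.0515 and 0.127 without Scf-GFP-positive library 1 and 2 and 0.103 without Scf-GFP-negative library 1, and turned to 0.14 (0.902) with the 20000 strongest peaks.

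Rspo3 and Lrp4 had fewer summits in both cultures than in Scf-GFP-positive stroma. Both fell below the filter without the Scf-GFP-positive libraries, so they were tested only through the group where they are high. Rspo3, which amplifies Wnt signals through Lgr receptors, had 1 summit in each rMSC library, 1, 1 and 2 in control and 7 and 7 in Scf-GFP-positive libraries. The log2 change of Rspo3 was −2.32 ± 0.44 in rMSC (adjusted p = 0.0162) and −2.08 ± 0.44 in control against Scf-GFP-positive stroma (0.0283 in limma), and that of Lrp4 −2.41 ± 0.44 (0.0147) and −2.17 ± 0.44 (0.0249). Both calls of each gene ended without Scf-GFP-positive library 1 or 2, with adjusted p of 0.0631 to 0.119 in limma. The control calls also ended without control library 1 or 2 for Rspo3 (0.0764 and 0.0797) and without control library 1 or 3 for Lrp4 (0.0695 and 0.0680). With all deposited peaks both calls of each gene ended as well. The adjusted p was then 0.0767 in rMSC and 0.31 in control for Rspo3, and 0.27 and 0.349 for Lrp4, in limma. Of the 55, 4 rose and 6 fell in rMSC against Scf-GFP-positive stroma, where 13.0% of all loci were called, and 1 rose and 5 fell in control, where 10.9% were. With all deposited peaks 9 of the 10 rMSC calls and all 6 control calls ended. All 6 control calls ended without Scf-GFP-positive library 1 and likewise without library 2. Of the 10 rMSC calls, 9 ended without Scf-GFP-positive library 1, Ctnnbip1 being the exception, and 6 without library 2.

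In rMSC against control, Wif1 and Ror1 were the 2 of 55 called, a share near the 2.47% of all tested loci. Wif1, a secreted inhibitor that binds Wnts, had 5, 3 and 4 summits in rMSC, 1, 1 and 1 in control and 2 in every sorted library, with a log2 change of 1.56 ± 0.16 against control (adjusted p = 0.00496 in limma). Chromosome 10, which carries Wif1, held 3034 to 3158 summits in rMSC and 2311 to 2401 in control libraries, and with chromosome totals equalised the change was 1.24 (0.0234). With all deposited peaks the call of Wif1 ended (0.0939). Without its rMSC libraries Wif1 fell below the filter, so it was tested only through the group where it is high. Ror1, with the counts above, fell by 1.32 ± 0.20 on the log2 scale (0.0262 in limma). Chromosome 4, which carries Ror1, held 1915 to 1947 summits in rMSC and 2323 to 2383 in control libraries, and with totals equalised the change was −1.06 (0.0437). Without control library 1, 2 or 3 the adjusted p of Ror1 was 0.0782, 0.0658 and 0.0790 in limma. The call of Ror1 also ended with all deposited peaks, as that of Wif1 did. It ended as well with the 20000 strongest peaks (adjusted p = 0.175 in limma) and with a replicate block. Ror1 kept this call in 11 of 17 alternatives.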

How the data were processed

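Per the labels' protocols, ATAC-seq libraries were sequenced as paired reads. The submitters' processing notes name the aligner BWA, the peak caller MACS2 and build mm10, without versions or parameters. The authors deposited 1 peak list per library, with a fold enrichment (a ratio), −log10 p and −log10 q values and a score for each peak. These are the authors' values and were used only to rank peaks within a list.

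Only peaks of the autosomes and X entered; they were ranked by −log10 p, and the 39912 strongest of each list were kept, with ties at the weakest p broken by a seeded random draw. Summits were counted in 21631 RefSeq protein-coding loci (GRCm38.p6, the coordinates of mm10; body with 10 kb flanks). The 9143 loci averaging 2 or more summits entered limma 3.58.1 (R 4.3.3, trend, empirical Bayes) on log2(summits + 0.5), with 4 groups in 1 fit, 6 residual and 1.615 prior degrees of freedom, two-sided tests and Benjamini-Hochberg adjustment over all loci. The scale understates changes of low loci. The fit was tested on simulated data. Regions are peaks merged over libraries by 1 bp overlap.

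Named were every called member, the member of each role with the highest mean, up to 4 called pathway genes per direction and the top regions by rank; other members and regions were chosen after their values were seen. The members, the lists of pathway and marker genes and the tests were chosen with earlier results of these data known. By the flow cell names attached to the deposited lists, 1 flow cell carried the first replicate of each group and another the rest. All 11 member calls had the same sign within both. That had to be so, because the 2 groups of each call did not overlap, and it says nothing about the flow cells. Alternatives covered the peak lists, flank, pseudocount, filter, normalisation by chromosome, block, flow cell and each left-out library.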

Additional observations from a re-analysis of the deposited data

How the results depend on the processing

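Of the single-member changes recomputed under the alternatives, 1016 kept direction and side of the threshold, 35 lost the call, 25 gained one and none turned. Wnt6 kept its call in 13 of 13 alternatives that tested it and Dkk3 in 14 of 14. Lrp6, Tcf7 and Wnt5a lost theirs between the sorted groups only when those 2 groups were fitted alone. The cause of other changes was not tested. Counts of calls also depend on how many members passed the filter. Tested were 18 members in the main fit, 28 with all deposited peaks and 5 with the 20000 strongest. With a flank of 2 kb 12 were tested, and without the filter 42. Member calls in Scf-GFP-positive against Scf-GFP-negative stroma (9) were 15 with all deposited peaks, 14 of them with more summits. They were 2 with the 20000 strongest, 5 with a flank of 2 kb, 2 with only the 2 groups, and 5 to 9 without 1 library. In control against Scf-GFP-positive (1) they were 4 with all peaks, 0 with a flank of 2 kb, 2 without the filter, 2 with chromosome totals equalised, and 0 to 2 without 1 library. In rMSC against Scf-GFP-positive (1) they were 3 with all peaks, 2 with a pseudocount of 1, 2 without the filter, 2 with a flow cell term, 2 with only the 2 groups, and 0 to 1 without 1 library. In rMSC against control (0) they were 0 to 1 without 1 library. Chosen after seeing the data, leaving out peaks tied at the weakest p gave 3 in control against Scf-GFP-positive, and a second draw of tied peaks gave 2 there and 3 in rMSC against Scf-GFP-positive.

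Over all loci, Scf-GFP-positive against Scf-GFP-negative (2714 calls, 1221 higher and 1493 lower) gave 2138 with all peaks (1685 higher, 453 lower). It gave 1063 with the 20000 strongest peaks, 916 with only the 2 groups, and 1822 to 2602 without 1 library. The deposited lists differ in length. Whether that bears on the changes of single members with all deposited peaks was not tested. Control against Scf-GFP-positive (996 calls, 490 higher and 506 lower) gave 453 with all peaks (346 higher, 107 lower), 427 with the 20000 strongest, 1738 without the filter, and 489 to 609 without 1 library. In rMSC against control (226 calls) there were 35 with all peaks, 751 without the filter, 84 with a flow cell term, 140 with chromosome totals equalised, 464 with only the 2 groups, and 73 to 104 without 1 library. In rMSC against Scf-GFP-positive (1191 calls, 637 higher and 554 lower) there were 1024 with all peaks (837 higher, 187 lower). There were 506 with the 20000 strongest, 2256 without the filter, and 567 to 787 without 1 library. The tested loci numbered 9143 in the main fit, 11974 with all peaks, 4463 with the 20000 strongest and 17855 without the filter. Leaving out a library keeps the tested loci, and a lone library is assumed to vary like the other groups.

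Replicate numbers did not pair the libraries: same-numbered deviations correlated at −0.0303 to 0.0176. With a replicate block, member calls were 7 between the sorted groups, without Wnt2b (adjusted p = 0.0642 in limma) and Wnt9a (0.0631), 0 in control against Scf-GFP-positive, without Lrp6 (0.0773), 0 in rMSC against control and 1 in rMSC against Scf-GFP-positive, and calls over all loci were 397 in control against Scf-GFP-positive, 45 in rMSC against control and 597 in rMSC against Scf-GFP-positive.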
